A study of Mus musculus with 4 samples.

Results

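The Pax, Lhx, Nkx, Tbx, Sox and Six-family genes encode transcription factors that pattern the embryo, and their DNA methylation was followed here in mouse liver. All 67 protein-coding autosomal genes of the mm10 RefSeq annotation whose symbol is Pax, Lhx, Tbx, Sox or the Six-family stem followed only by a number, or begins with Nkx, were taken, of 20665 protein-coding autosomal genes in all. They comprise 9 Pax, 6 Six-family, 8 Lhx, 14 Nkx, 12 Tbx and 18 Sox genes. Each was measured over its body and 5 kb either side, called its region below, at CpGs with both strands summed and at least 10 reads in every library. That gave 11414 CpGs in the 67 regions, of 18603 listed there, and 1219568 CpGs in the regions of the other genes.

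The livers came from C57BL6/N mice aged 6 weeks that were either Pnpla7-/- (KO, 2 libraries) or Pnpla7+/+ (WT, 2 libraries). Pnpla7 encodes a patatin-like phospholipase that acts on lysophospholipids. The labels give neither the way the gene was disrupted nor any sign that 2 libraries of a genotype stand for 2 mice. The p-values below therefore rest on the spread among libraries, which may be technical, and methylation gives no check of the deletion itself. The assay was reduced representation bisulfite sequencing (RRBS), in which genomic DNA cut with TaqI and MspI is sequenced after bisulfite conversion, so that CpG-rich fragments are read most deeply. The level of a CpG is the share of its reads that are methylated.

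As background, these genes bind DNA through a paired domain (Pax), a homeodomain (Six-family, Lhx, Nkx and several Pax), a T-box (Tbx) or an HMG box (Sox), and most are silent in adult tissues outside a few lineages. In many tissues their silence is associated with Polycomb complexes, which mark histone H3 at lysine 27, and not with methylation of their CpG islands. Broad unmethylated stretches over such genes, wider than an ordinary CpG island, have been called DNA methylation valleys. Whole liver is a mixture of hepatocytes, bile duct, endothelial, stellate and blood cells, and a level in the middle of the range can be a mixture of cells or of alleles, which cannot be told apart here.

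The libraries held 59953688 and 60535892 reads over cytosines in KO livers, against 50413170 and 59437109 in WT livers, and the median member CpG had 26 and 25 reads in KO livers, against 23 and 26 in WT livers. At 10 reads a level of 5 methylated reads has a 95% exact binomial interval of 18.7% to 81.3%, so single CpGs are imprecise and sums over many CpGs are the firmer values. Such intervals cover counting error only. Of 10 hepatocyte marker genes, 4 had a measured start window, with a median level of 11.996%, and of 10 leukocyte markers 4 had one, with a median of 83.0%. Endothelial markers rested on 1 window, stellate and fibroblast markers had a median of 3.08% over 5, and bile duct markers one of 18.8% over 5. No window of these lists was called between genotypes. The hepatocyte windows averaged 13.9% and 9.24% in KO livers, against 11.1% and 10.3% in WT livers, and the leukocyte windows 72.7% and 73.4% in KO livers, against 76.9% and 73.1% in WT livers, so both overlapped. The part of cell composition in the results below was not tested.

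The members were low in methylation in both genotypes. Their CpGs averaged 16.05% ± 0.113 in KO livers and 16.2% ± 0.141 in WT livers (SD, n = 2 each), while CpGs of all other gene regions averaged 38.1% ± 0.0388 in KO livers and 37.9% ± 0.129 in WT livers. Members less other genes came to between -22.2 and -21.7 percentage points in each of the 4 libraries (exact two-sided sign-flip test, p = 0.125, the smallest that 4 libraries allow). The median member region had a level of 10.4%, against 37.7% for the other regions. A level under 20% was held by 49 of the 67 member regions (73.1%), against 4172 of 17717 others (23.5%).

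The gap differed by CpG density. CpGs were split by the number of listed CpGs within 250 bp, into sparse (1 to 4), middle (5 to 19) and dense (20 or more). Dense CpGs of members averaged 3.22% over the 4 libraries, against 3.02% in other genes. Middle CpGs of members averaged 23.1%, against 57.0% in other genes, a difference between -34.2 and -33.5 points in each library (exact sign-flip p = 0.125). Sparse CpGs averaged 64.2% in members and 77.2% in other genes. Of the 3 classes the gap was widest at middle density, while dense CpGs of members were 0.194 points higher.

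The low methylation of members extended over long stretches. CpGs with a level under 20% over the 4 libraries made up a median 86.6% of a member's CpGs, against 54.3% for other genes. The longest run of such CpGs, with no gap over 1 kb between neighbours, had a median of 2454 bp in members and 734 bp in other genes. By library this median was 2149 and 2061 bp in KO livers, against 2061 and 2360 bp in WT livers. Members also had more analysed CpGs, a median of 147 per region, against 67 in other genes. Dense CpGs made up a median 59.8% of a member's CpGs, against 39.3% for other genes. The part of CpG number and density in these shares and runs was not tested. A run over 5000 bp occurred in 1 of 67 members, Pax2, and in 33 of 17717 other genes (0.186%).

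Around gene starts, the members were low where other genes were already higher. Starts were taken at the annotated gene end where strand was known (51 members) and otherwise at the gene end with more listed CpGs (16 members). Where strand was known, the CpG-richer end was the start in 78.1% of genes and in 44 of the 51 members. Between 500 and 1000 bp upstream the members averaged 7.77% ± 0.106 in KO livers and 7.77% ± 0.383 in WT livers, while other genes averaged 34.4% in KO livers and 34.0% in WT livers. Between 1000 and 1500 bp downstream members averaged 7.31% ± 0.133 in KO livers and 7.08% ± 0.269 in WT livers, and other genes 31.4% in KO livers and 30.9% in WT livers. The sets were closest within 500 bp downstream of the start, with members at 7.21% in KO livers and 7.998% in WT livers and other genes at 8.64% in KO livers and 8.65% in WT livers.

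**Figure D1:**
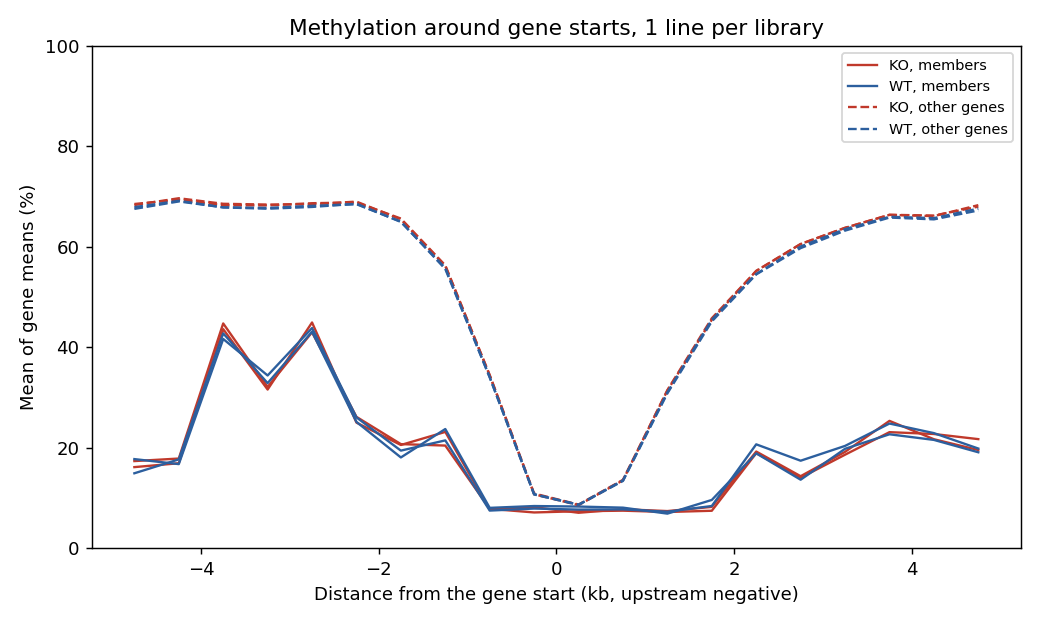
Mean CpG methylation (%) in 500-bp bins by distance from the gene start (kb), with 1 line per library, KO in red and WT in blue, for members (solid lines) and other genes (dashed lines). Members stay near 7% to 8% from 1 kb upstream to 1.5 kb downstream, where the dashed lines already lie at 34.0% to 34.5% upstream and 30.8% to 31.5% downstream. Each member bin averages 13 to 43 genes.

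Levels over pooled CpGs differed between families. Regions of the Six-family genes had the lowest CpG mean, 5.25% ± 0.0276 in KO livers and 5.61% ± 0.216 in WT livers, followed by those of the Nkx family at 6.40% ± 0.0776 in KO livers and 6.79% ± 0.0393 in WT livers. Lhx regions averaged 9.67% in KO livers and 9.72% in WT livers, Tbx regions 15.6% in KO livers and 15.5% in WT livers, and Pax regions 18.5% in both. Sox regions were highest, at 28.5% in KO livers and 28.6% in WT livers, of which Sox5 gave 558 of 2926 CpGs. Both ends of this order change when the median region is taken in place of the mean over CpGs. The median region was highest in Pax (18.7%) and Tbx (16.8%), with Sox at 11.9%. It was lowest in Nkx (4.12%), next to 4.26% in the Six-family genes. All 6 Six-family genes and all 8 Lhx genes had a region under 20%, as had 12 of 14 Nkx, 6 of 9 Pax, 11 of 18 Sox and 6 of 12 Tbx genes.

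**Figure D2:**
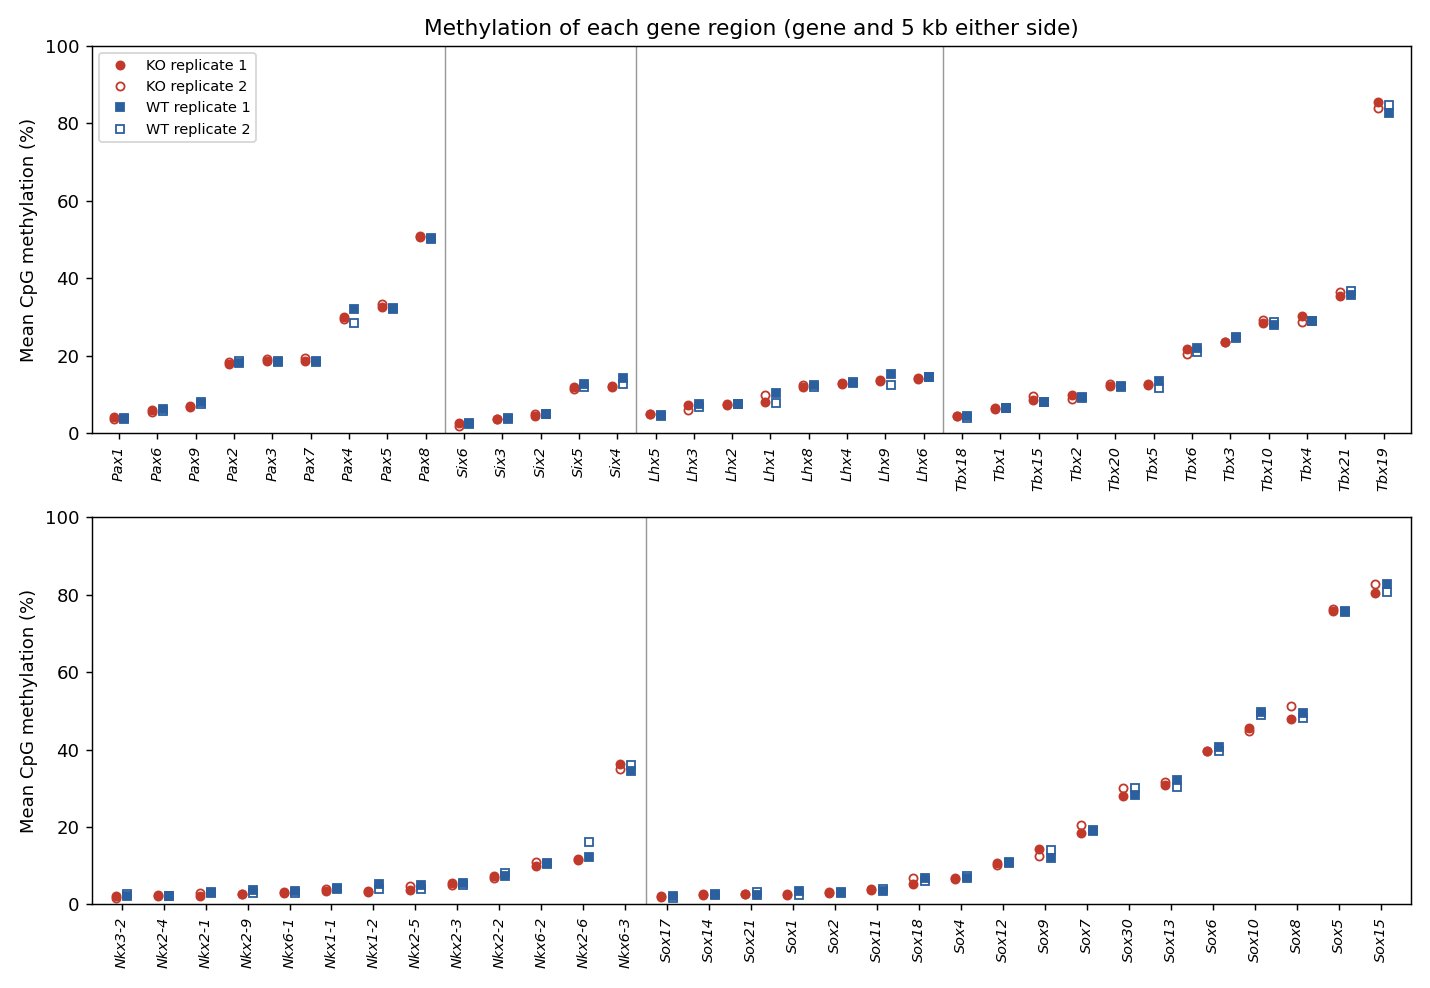
Mean CpG methylation (%) of each member region but 2, ordered by level within a family, with KO libraries as red circles left of WT libraries as blue squares, filled for replicate 1 and open for replicate 2. Most genes lie under 20%, the symbols of the genotypes nearly coincide, and Tbx19, Sox15 and Sox5 stand above 75%.

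The lowest regions included those of Sox17 and Nkx3-2. Sox17, a factor of endoderm and endothelium, was at 1.81% and 2.06% in KO livers, against 2.21% and 1.76% in WT livers, and all of its 121 CpGs were under 20%. Nkx3-2, a cartilage factor, was at 2.04% and 1.60% in KO livers, against 2.04% and 2.62% in WT livers. Both sets of libraries overlapped. Every CpG under 20% was also found in Nkx2-9, Nkx3-2 and Six6.

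In the other families the lowest regions were of the same order. Pax1, needed for the vertebral column, was at 4.12% and 3.69% in KO livers, against 3.74% and 3.83% in WT livers. Tbx18, known from the epicardium and ureter, was at 4.36% and 4.27% in KO livers, against 4.32% and 3.99% in WT livers. Lhx5, a forebrain factor, had the lowest level among the Lhx genes, with 5.003% and 4.979% in KO livers, against 4.30% and 4.54% in WT livers. Here the KO libraries were both above the WT libraries, by 0.57 points in the mean over CpGs (region unadjusted p = 0.258 on summed reads, moderated quasi-binomial model).

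A few members were methylated almost throughout. Tbx19, which drives the corticotrope lineage of the pituitary, was at 85.6% and 83.9% in KO livers, against 82.8% and 84.8% in WT livers, and none of its 26 CpGs was under 20%. Sox15 was at 80.4% and 82.7% in KO livers, against 82.8% and 80.8% in WT livers, also with no CpG under 20% among 30. Sox5, a cartilage factor whose gene spans 953863 bp, was at 75.9% and 76.2% in KO livers, against 75.8% and 75.6% in WT livers. Its start window nevertheless was at 1.70%, and only 11.5% of its 558 CpGs were under 20%. Of these 3, Sox5 was the only one with a low start measured: the Sox15 window was at 40.2% and 49.4% in KO livers, against 43.5% and 47.1% in WT livers, and Tbx19 had no measured window.

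Between these ends lay the members with the highest level in the remaining families. Pax8, a thyroid and kidney factor that lies 0.500 Mb from Pnpla7, was at 51.0% and 50.7% in KO livers, against 50.2% and 50.3% in WT livers, over only 25 CpGs. Nkx6-3, known from the stomach, was at 36.3% and 34.98% in KO livers, against 34.6% and 35.9% in WT livers. Lhx6, a factor of cortical interneurons, was at 14.3% and 14.1% in KO livers, against 14.6% and 14.4% in WT livers. Six4, a homeodomain factor, was at 11.8% and 12.1% in KO livers, against 14.1% and 12.8% in WT livers.

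Pax2, Tbx3 and Nkx2-9 had the longest runs of low methylation. The run of Pax2, a kidney and optic nerve factor, covered 5781 bp and 181 CpGs, longer than in 99.9% of the genes measured. That of Tbx3 covered 4899 bp and 102 CpGs, and that of Nkx2-9, a factor of the ventral neural tube, 4760 bp. Recomputed by library, the run of Pax2 was 4584 and 5945 bp in KO livers, against 5781 bp in both WT libraries, that of Tbx3 was 4899 bp in both KO libraries and 5540 bp in both WT libraries, and that of Nkx2-9 was 4760 and 3678 bp in KO livers, against 3166 and 3420 bp in WT livers. The ends of a run turn on single CpGs crossing 20%, and these lengths carry no test.

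Several members are neighbours, so their regions are not independent. Nkx2-1, Nkx2-9 and Pax9 follow each other on chromosome 12 at gaps of 74.5 and 78.1 kb. Six3 and Six2 on chromosome 17 lie 36.5 kb apart, and Tbx2 and Tbx4 on chromosome 11 lie 44.4 kb apart. Region levels of neighbours could differ, as for Tbx2, at 9.89% and 8.69% in KO livers, against 9.12% and 9.28% in WT livers, and Tbx4, at 30.3% and 28.6% in KO livers, against 29.1% and 29.03% in WT livers.

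Promoter sequence was examined because the enzymes can only reach CpGs near their sites. RefSeq promoter sequences of the mm10 build (300 bases, 250 before to 50 after a start) were at hand for 51 members, 65 sequences in all. They held a median of 17 CpGs, against 7 over 31396 autosomal promoters of the same length. The MspI site CCGG, which reads the same on both strands, was in 78.5% of them and in 53.5% of all promoters, and the TaqI site TCGA, likewise a palindrome, was in 21.5% and in 22.1%. Of these sequences 37, from 32 members, had 3 or more analysed CpGs, with a median level of 1.57%, and 34 of the 37 lay under 10%. The remaining 3 belonged to Sox30, Tbx6 and Tbx1. Sequences with fewer analysed CpGs are not in these counts. Those with 2 were higher, at 42.8% for Sox15 and at 85.0% and 37.3% for Sox6, and that of Nkx2-9, with 1, was at 2.5%.

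3 promoters show the range of what was read, an island read nearly whole, a start with a methylated flank and a start inside a long low run. They are given 5′ to 3′ in the direction of the gene, and capitals mark the CpGs that were analysed.
Sox12, chr2:152397997-152398296, minus strand: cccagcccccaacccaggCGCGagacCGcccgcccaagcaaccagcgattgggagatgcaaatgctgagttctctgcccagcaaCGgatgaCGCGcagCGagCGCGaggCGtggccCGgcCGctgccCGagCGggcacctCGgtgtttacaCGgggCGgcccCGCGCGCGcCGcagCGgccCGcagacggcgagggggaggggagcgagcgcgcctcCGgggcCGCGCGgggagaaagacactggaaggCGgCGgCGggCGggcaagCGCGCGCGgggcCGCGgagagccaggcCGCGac
Sox30, chr11:45980060-45980359, plus strand: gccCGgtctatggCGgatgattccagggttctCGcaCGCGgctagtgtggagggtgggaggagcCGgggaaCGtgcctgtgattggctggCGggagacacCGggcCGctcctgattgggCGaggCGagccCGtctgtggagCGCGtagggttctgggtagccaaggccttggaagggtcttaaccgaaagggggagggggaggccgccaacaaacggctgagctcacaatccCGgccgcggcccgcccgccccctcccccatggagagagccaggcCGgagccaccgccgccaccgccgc
Pax2, chr19:44756656-44756955, plus strand: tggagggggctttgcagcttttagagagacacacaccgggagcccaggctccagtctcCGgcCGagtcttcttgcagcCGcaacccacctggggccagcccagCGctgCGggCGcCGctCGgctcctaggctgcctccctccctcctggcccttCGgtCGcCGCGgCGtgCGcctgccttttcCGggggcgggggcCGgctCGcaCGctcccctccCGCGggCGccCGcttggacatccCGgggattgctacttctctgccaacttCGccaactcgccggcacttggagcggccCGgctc

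The Sox12 promoter, of a gene related to Sox4 and Sox11, had 47 CpGs, of which 40 were analysed. Its level was 0.247% and 0.633% in KO livers, against 0.699% and 0.279% in WT livers, on 1144 to 1618 reads per library. All 4 libraries were near 0 and the genotypes overlapped. The Pax2 promoter printed above, 1 of 3 in the table, was at 1.14% and 2.50% in KO livers, against 1.65% and 0.892% in WT livers, over 25 CpGs. It lies 10305 bp inside the gene as annotated, within the long low run.

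Sox30, a factor of spermatid development, had a promoter that was methylated on its upstream side. Its level was 31.6% and 37.3% in KO livers, against 37.2% and 34.6% in WT livers, over 17 CpGs and 381 to 453 reads per library. The CpG 237 bases upstream was at 83.9% and 80% in KO livers, against 76.2% and 87.0% in WT livers. The CpG 18 bases upstream was at 0 in all 4 libraries, and the one 26 bases downstream at 4% and 9.09% in KO livers, against 6.25% and 0 in WT livers. Levels were high at the far end and near 0 at the start in every library, and the sum over the promoter overlapped between genotypes. Single CpGs between parted in both directions, with no test: the one 214 bases upstream was at 6.67% and 17.2% in KO livers, against 26.2% and 29.2% in WT livers, and the one 120 bases upstream at 35.3% and 37.0% in KO livers, against 16.7% and 11.1% in WT livers. The start in the table lies 1241 bp inside the gene as annotated, and the window at the annotated end was at 80.5% and 80.8% in KO livers, against 81.0% and 85.1% in WT livers.

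**Figure D3:**
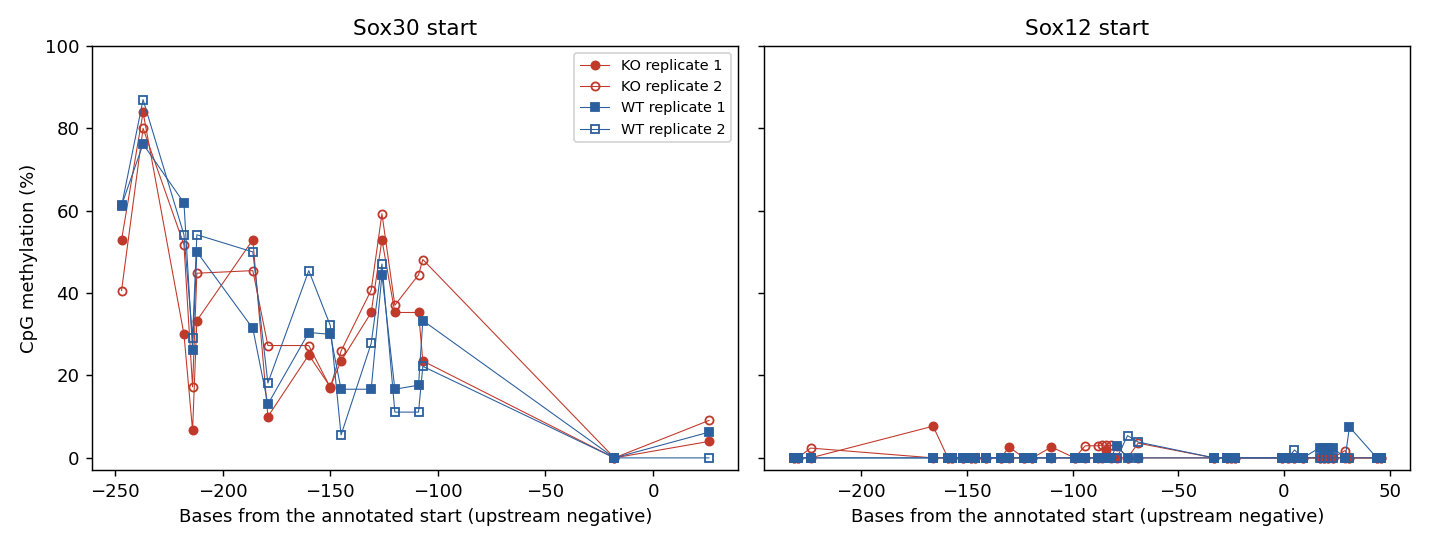
CpG methylation (%) by position in bases from the RefSeq start at the Sox30 and Sox12 promoters, with 1 line per library, KO as red circles and WT as blue squares. Sox30 falls from over 75% at 237 bases upstream to 0 at 18 bases upstream, while no Sox12 CpG passes 10%.

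Start windows, 1 kb either side of the start, were measured in 62 members and 13923 other genes. The median member window was at 2.30%, against 1.43% for other genes, and 52 of 62 lay under 10% (83.9%), against 78.5% of the others. 3 member windows were over 50%, those of Nkx6-3, Sox30 and Tbx10. They rested on 9, 12 and 3 CpGs, and the Nkx6-3 window was placed at the CpG-richer gene end. Tbx1, the heart and pharyngeal arch factor, had 2 measured promoters, of which the one at the annotated gene start was at 1.20% and the inner one, 1772 bp within, at 12.7%. The inner promoter of Tbx1 was alike in both genotypes, at 12.7% and 12.9% in KO livers, against 12.7% and 12.5% in WT livers.

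No gene region, start window, 1-kb tile or CpG of the members was called different between KO and WT livers. A call needed an adjusted p (Benjamini-Hochberg over all features of its kind in the genome) under 0.05 in the moderated quasi-binomial model, and pooled reads of the genotypes had to differ by 10 points or more. Of 67 member regions 0 were called (background 0%, 0 of 17781 regions) and 3 had an unadjusted p under 0.05 (4.48%, background 4.27%). Of 62 windows 0 were called (background 0.0215%) and 4 had an unadjusted p under 0.05 (6.45%, background 5.64%). Of 759 tiles tested 0 were called (background 0.0795%) and 46 had an unadjusted p under 0.05 (6.06%, background 5.76%), of which 27 were lower in KO livers. Of 9107 CpGs tested 0 were called (background 0.00775%, lowest adjusted p = 0.731) and 272 had an unadjusted p under 0.05 (2.99%, background 3.88%). limma, run on log2 ratios as an alternative, also called 0 of each, but it called no tile, region or window of any gene.

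The direction of the small region differences was counted as well. The region level was lower in KO livers for 45 of 67 members, against 7435 of 17717 other genes (42.0%). Both KO libraries lay below both WT libraries in 12 member regions (17.9%, background 14.2%), and both lay above in 8 (11.9%, background 24.6%). Window levels were lower in KO livers for 39 of 62 members, against 48.1% of other genes. The median region difference was only -0.16 points in members and 0.16 points in other genes.

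Mean levels by density class did not part the genotypes beyond what 2 libraries each can show. Dense member CpGs were at 3.15% ± 0.0671 in KO livers and 3.29% ± 0.0205 in WT livers, and dense CpGs of other genes at 2.97% in KO livers and 3.08% in WT livers. Middle member CpGs were at 22.99% ± 0.0157 in KO livers and 23.3% ± 0.262 in WT livers, whereas those of other genes were at 57.1% in KO livers and 56.9% in WT livers. In both classes the KO libraries lay on one side of the WT libraries, for members and for other genes alike. Each had an exact permutation p = 0.333, the smallest that 2 against 2 libraries allow. Sparse member CpGs were at 64.4% ± 0.681 in KO livers and 64.0% ± 0.433 in WT livers (exact permutation p = 0.667). The 1121 member CpGs with a mean level of 20% to 80% were at 52.9% ± 0.774 in KO livers and 52.8% ± 1.19 in WT livers (exact permutation p = 1). Sparse CpGs of other genes were at 77.6% in KO livers and 76.9% in WT livers, and those of 20% to 80% at 58.6% and 57.7%. There both KO libraries lay above both WT libraries (exact permutation p = 0.333 each).

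Set against other genes, the KO minus WT difference of members less that of other genes was -0.32 points over all CpGs (exact permutation p = 0.333) and -0.49 points at middle density (exact permutation p = 0.333). The first turned to 0.30 points when CpGs were weighted by reads, and the second came to -0.21 points under that weighting (exact permutation p = 0.667). For dense CpGs the difference of differences was -0.025 points (exact permutation p = 1). For sparse CpGs it was -0.28 points and for CpGs of 20% to 80% -0.87 points (exact permutation p = 0.667 each). The latter came to -2.19 points with equal weight per gene (exact permutation p = 0.333). By family, the KO libraries were both below the WT libraries for the Six-family genes (by 0.36 points) and for Nkx (by 0.39 points), each with an exact permutation p = 0.333. The Six-family difference was -0.21 points without WT replicate 1. The 4 other families differed by less than 0.13 points and their libraries overlapped.

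Among regions, Sox10 had the largest difference. Sox10, the neural crest and glial factor, was at 45.5% and 44.8% in KO livers, against 49.6% and 48.9% in WT livers, so the libraries of the genotypes did not overlap. The difference of -4.15 points is between means over CpGs. The region test, on reads summed over the region, gave an unadjusted p of 0.00751 and an adjusted p of 0.997 (moderated quasi-binomial model). Its window, at the CpG-richer gene end, was at 1.94% and 2.90% in KO livers, against 6.18% and 6.59% in WT livers (unadjusted p = 0.000342, adjusted p = 0.238). The tile chr15:79163001-79164000, inside the gene and 0.5 to 1.5 kb from that end, was at 1.23% and 2.06% in KO livers, against 4.78% and 4.93% in WT livers, over 36 CpGs (adjusted p = 0.146).

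Sox10 lies in a stretch of chromosome 15 that holds CpGs of opposite level in the genotypes. Of 36 CpGs in the genome with both WT libraries at or under 10% and both KO libraries at or over 70%, on 5 or more reads each, 34 lie on chromosome 15 between positions 73474421 and 86723329. None of the 36 is a member CpG, and the nearest to Sox10 is 269.9 kb away. The part of that stretch in the Sox10 values was not tested. On chromosome 2, Lhx3, a pituitary and motor neuron factor 1.15 Mb from Pnpla7, was at 7.16% and 6.03% in KO livers, against 7.46% and 6.61% in WT livers, and these overlapped.

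In each family the regions that differed most in each direction were looked at. Nkx2-6, a factor of the pharyngeal arches, was at 11.7% and 11.5% in KO livers, against 12.2% and 16.2% in WT livers (region unadjusted p = 0.0274 on summed reads, moderated quasi-binomial model). Pax9, needed for teeth and palate, was at 7.01% and 6.59% in KO livers, against 7.99% and 7.43% in WT livers (region unadjusted p = 0.0451 on summed reads, moderated quasi-binomial model). Six4 differed by -1.50 points, Tbx3 by -1.05 and Lhx3 by -0.44. On the other side, Tbx15, a limb and skin patterning factor, was at 8.61% and 9.50% in KO livers, against 8.07% and 7.93% in WT livers, Sox8, a relative of Sox9 and Sox10, differed by 0.83 points with overlapping libraries, and Nkx6-3 by 0.39 points. None of these regions was called.

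Of the 1-kb tiles, those of smallest p lay in Pax2, Nkx2-6, Six4, Sox10 and Tbx3, and all were lower in KO livers. The Pax2 tile chr19:44748001-44749000, inside the gene and 1.4 to 2.4 kb from its annotated start, was at 20.8% and 21.8% in KO livers, against 30.3% and 39.1% in WT livers, over 9 CpGs with 709 reads in KO livers and 558 reads in WT livers. Both KO libraries lay below both WT libraries, and the difference over pooled reads was -13.8 points (adjusted p = 0.107). The next Pax2 tile, chr19:44749001-44750000, was at 6.01% and 10.6% in KO livers, against 10.3% and 25.8% in WT livers, where the groups overlapped. Both KO libraries lay below both WT libraries in 20.5% of all member tiles and in 15.5% of other tiles of gene regions. The 3 Pax2 tiles at 44746001, 44748001 and 44752001 on chromosome 19 were each lower in both KO libraries than in both WT libraries. Further inside the gene, the tiles at 44785001 and 44799001 went the other way, the first with 73.4% and 77.9% in KO livers, against 68.1% and 62.5% in WT livers, and the second with 47.6% and 57.4% in KO livers, against 46.3% and 37.5% in WT livers. Of 40 Pax2 tiles 24 were lower in KO livers.

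**Figure D4:**
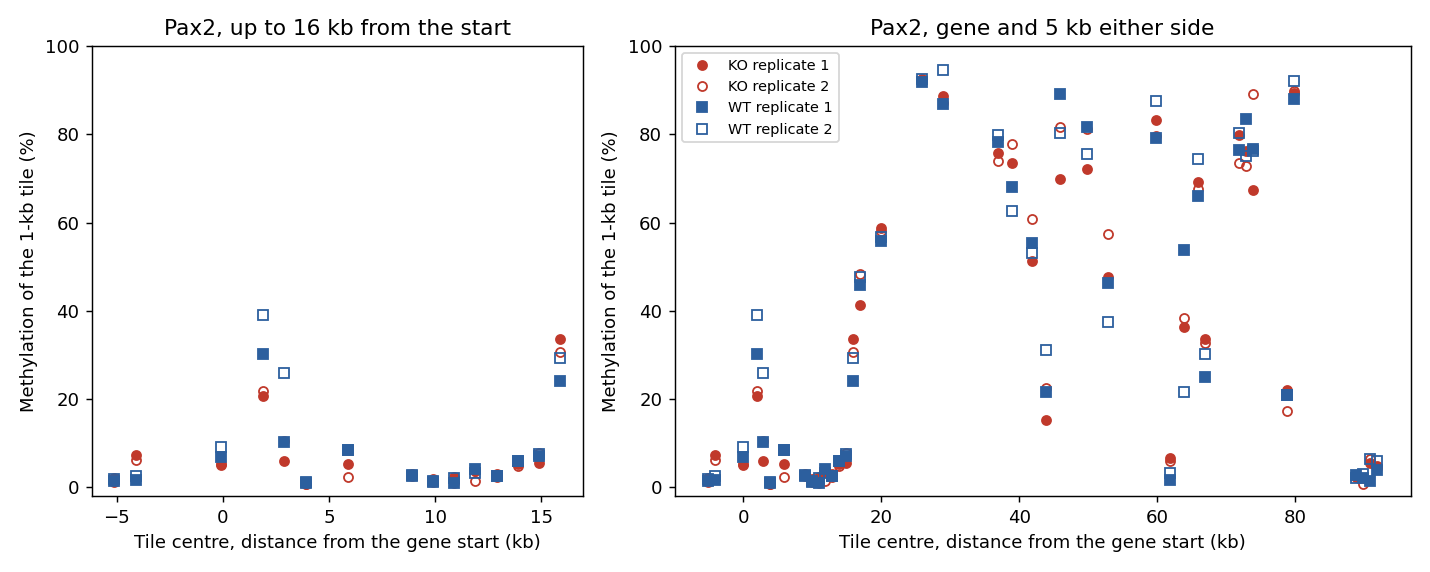
Methylation (%) of 1-kb tiles by distance (kb) of the tile centre from the annotated Pax2 start, up to 16 kb at left and over the whole region at right, with KO libraries as red circles and WT libraries as blue squares. At 2 kb the KO libraries lie at 20.8% and 21.8% and the WT libraries at 30.3% and 39.1%, and the tiles from 4 to 15 kb lie under 10%.

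The Six4 tile chr12:73110001-73111000, inside the gene and 3.0 to 4.0 kb from its start, was at 21.5% and 21.9% in KO livers, against 41.6% and 29.3% in WT livers, over 11 CpGs. Its difference was -13.8 points (adjusted p = 0.136), with the KO libraries closer together than the WT libraries. The Nkx2-6 tile chr14:69171001-69172000, across the gene's lower end, was at 5.62% and 5.91% in KO livers, against 9.09% and 16.04% in WT livers (adjusted p = 0.122). The Tbx3 tile chr5:119687001-119688000, 2.3 kb outside the gene, was at 13.1% and 14.5% in KO livers, against 18.9% and 19.2% in WT livers (adjusted p = 0.228). In each of these tiles both KO libraries lay below both WT libraries, a separation that choosing tiles by smallest p favours. Its share was 20.5% over all member tiles and 15.5% over other tiles of gene regions.

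Single CpGs were less firm. The member CpG of smallest p, chosen after its values were seen, was in Nkx2-6 at position 69171467 of chromosome 14, with 9.38% and 14.1% in KO livers, against 29.3% and 42.6% in WT livers, on 41 to 64 reads per library (adjusted p = 0.731). It lies in the Nkx2-6 tile above. The next, in Sox5 at position 144057468 of chromosome 6, was at 50% and 34.8% in KO livers, on 14 and 23 reads, against 0 and 5.56% in WT livers, on 15 and 18 reads (adjusted p = 0.789). The third, a Pax2 CpG at position 44746114 of chromosome 19 was at 0 in both KO libraries, on 26 and 19 reads, against 21.4% and 21.7% in WT livers, on 28 and 23 reads (adjusted p = 0.789).

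Whether such tiles were called depended on how the spread was estimated, and the size of their differences depended on single WT libraries. With the prior of the spread taken over all tiles, the Pax2 and Six4 tiles were called (adjusted p = 0.0325 and 0.0361), against a background of 0.149%. The Nkx2-6 tile had an adjusted p of 0.0317 with that prior, but its difference of -7.29 points fell short of the 10 needed. The narrower prior was chosen in earlier work on these data, after a simulated check and with call counts known. That choice was therefore not blind to the calls. Over all alternatives tried the adjusted p ran between 0.0101 and 0.894 for the Pax2 tile and between 0.00248 and 0.894 for the Six4 tile. Without WT replicate 1 the difference was -17.8 points for the Pax2 tile and -10.3 points for the Nkx2-6 tile. Without WT replicate 2 it was -19.9 points for the Six4 tile. The difference of the Pax2 tile was -8.98 points without WT replicate 2, that of the Six4 tile -7.66 points without WT replicate 1 and that of the Nkx2-6 tile -3.32 points without WT replicate 2.

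Tiles that were higher in KO livers came with larger adjusted p. The Lhx4 tile chr1:155710001-155711000 was at 82.0% and 86.7% in KO livers, against 73.5% and 71.4% in WT livers (adjusted p = 0.406). The Tbx15 tile chr3:99349001-99350000 was at 87.7% and 89.1% in KO livers, against 73.5% and 74.8% in WT livers (adjusted p = 0.517). The Pax5 tile chr4:44557001-44558000 was at 90.6% and 91.8% in KO livers, against 72.6% and 79.7% in WT livers, over 3 CpGs (adjusted p = 0.573). Over all 760 member tiles, 377 were higher and 382 lower in KO livers, with a median difference of -0.0080 points. Of these tiles 57.5% had a level under 20% and 20.1% one over 80%, against 24.1% and 50.9% of other tiles of gene regions.

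**Figure D5:**
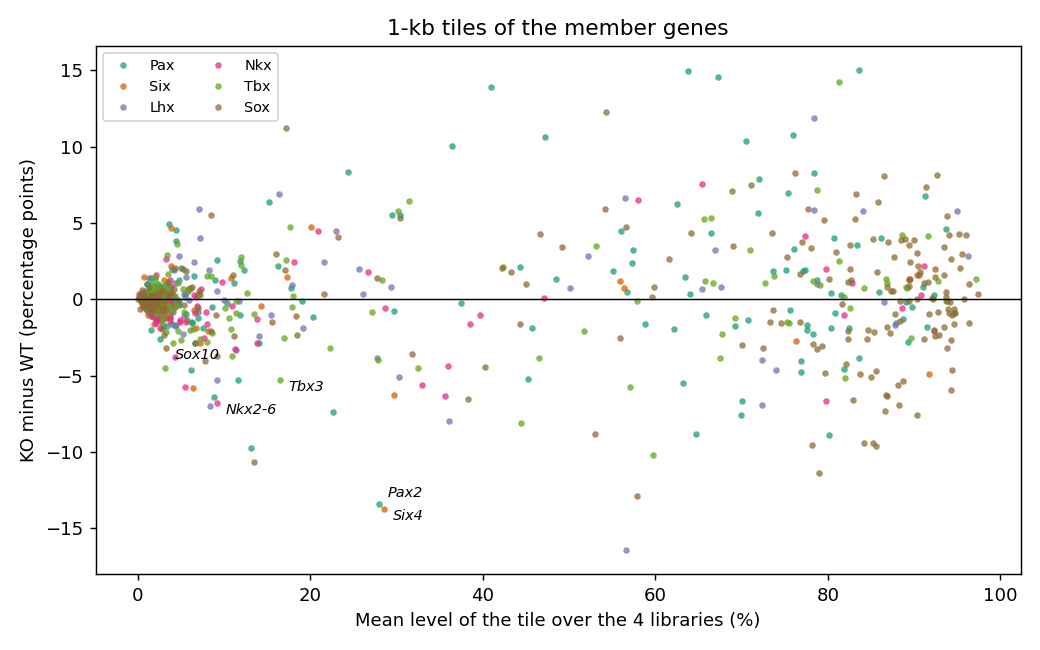
KO minus WT difference (percentage points) of each 1-kb member tile against its mean level over the 4 libraries (%), coloured by family, with the 5 tiles of smallest p named. Most tiles lie under 20% and near 0, and the named tiles all lie below 0.

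Some members are known from cells of adult liver or its blood. These were Sox9 (bile duct), Sox7, Sox17 and Sox18 (endothelium), Lhx2 (stellate cells), Tbx21 (T lymphocytes) and Pax5 (B lymphocytes). Sox4 and Tbx3 (embryonic liver bud and hepatoblasts in mice) were listed with them. The 9 regions of this list had a median level of 13.2%, and the 8 with a window lay between 0.546% and 7.59% there. Sox9 was at 14.3% and 12.4% in KO livers, against 12.001% and 14.02% in WT livers, and Lhx2 at 7.29% and 7.53% in KO livers, against 7.49% and 7.53% in WT livers, both overlapping.

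In the same list, Pax5 was at 32.5% and 33.3% in KO livers, against 32.4% and 32.1% in WT livers, a difference of 0.68 points with no overlap (region unadjusted p = 0.0521 on summed reads, moderated quasi-binomial model). Tbx21 was at 35.4% and 36.5% in KO livers, against 35.6% and 36.7% in WT livers, overlapping. Sox4 was at 6.44% and 6.68% in KO livers, against 6.82% and 7.31% in WT livers, without overlap. Sox7 was at 18.4% and 20.4% in KO livers, against 19.05% and 19.08% in WT livers, and Sox18 at 5.23% and 6.88% in KO livers, against 6.73% and 6.11% in WT livers, both overlapping. None of the 9 had a called region, window or tile.

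Other developmental transcription factors and the Polycomb genes were set beside the members. The list of 54 other developmental factors (Dlx, Irx, Gata, Hand, En and others) had a median region level of 5.82%, below that of the members, with a median of 94.5% of CpGs under 20%. Their median longest low run was 2430.5 bp, close to the 2454 bp of the members, so long runs are not particular to the members. Their windows were lower in KO livers in 36 of 52. Of their 548 tiles 1 was called, that of Onecut1, a hepatocyte and bile duct factor, at chr9:74868001-74869000, with 26.5% and 20.3% in KO livers, against 13.9% and 11.6% in WT livers (difference 10.7 points, adjusted p = 0.0220). It rose in KO livers, against the background of 0.0795% of tiles called in either direction. The call was lost without WT replicate 2 (adjusted p = 0.339), without KO replicate 1 (adjusted p = 0.116) and with limma (adjusted p = 0.894), and its adjusted p was 6.72e-05 to 0.00526 under the other alternatives tried. Of 28 Polycomb genes 27 had a region, with a median level of 22.1%, and 26 a window, with a median of 0.787%, of which 11 were lower in KO livers. None of their 266 tiles was called.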

How the data were processed

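Genomic DNA of mouse liver was measured by RRBS in 4 libraries. The authors deposited, per library, each cytosine's methylation level as a fraction and its read coverage, both signed by strand per the file headers and values; positions are those of mm10, and BWA 0.7.12 and MACS are named in the submitters' processing notes, without their settings. Level times coverage gave whole methylated reads for 100% of sites (tolerance 1e-06). Strands were summed and CpGs with 10 or more reads in all libraries kept, 1600691 in all.

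Reads were summed over CpGs, 1-kb tiles (3 or more CpGs), gene regions and start windows, and tested genome-wide with a binomial model whose dispersion was shrunk with limma 3.58.1 in R 4.3.3 (prior from features with a binomial variance of 5 or more reads in each library, dispersion at least 1), an F test on quasi-likelihood, and p adjusted by Benjamini-Hochberg. The model was tested on simulated data with this prior and with one over all features, which did not settle the choice between them. Means were compared by exact two-sided permutation of libraries. Region levels and their differences are means over CpGs of equal weight, while region p-values come from summed reads, so they do not test the printed differences. Tables and figures were made with Python 3.11.15, scipy 1.17.1 and matplotlib 3.10.9. Gene ends came from RefSeq tables of GRCm38.p6, which give strand only through promoter sequences; whether a CpG is exonic was not looked up.

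The members, lists and rules were chosen with earlier results of these data known. Named are, per family, the regions (50 or more CpGs) that differed most in each direction and the highest and lowest regions, the 3 longest runs, the 3 smallest low shares, members known in liver or blood cells, Lhx3 and Sox10; tiles were named by smallest p, and other members after their values were seen. Alternatives were coverage minima, priors, weights, flanks, limma on log2 ratios, a replicate block and each library left out. Same-numbered KO and WT libraries did not deviate together (correlation -0.0084 over tiles), so they were not paired. Values of 2 members are not reported here singly, though both count in the sets.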

Additional observations from a re-analysis of the deposited data

How the results depend on the processing

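Over the alternatives run, 190 values kept their direction and side of the threshold, 24 changed sign and 9 moved. Member CpGs, regions and windows had 0 calls under each alternative that kept all 4 libraries. These alternatives called no region of any gene, and some of them no window of any gene, so 0 member calls there say nothing particular to the members. Calls with a library left out rest on 1 library of a genotype and are not read. CpG depth limits what single sites can show. Member tiles called numbered 2 with the prior over all features and 2 with the replicate block (Pax2 and Six4 in both, although the numbers do not pair the libraries). Over the genome 244 and 340 tiles were called under these, against 130 of 163610 in the main fit. Neither changed another member call. With the block the Nkx2-6 and Sox10 tiles had an adjusted p of 0.00468 and 0.0428 in the quasi-binomial model, but differed by less than 10 points. The cause was not tested. A threshold of 10% gave a median low share of 81.8% and a run of 1684 bp, one of 30% gave 89.4% and 2657 bp, and a gap of 3 kb gave 3971 bp. The KO minus WT values that changed sign are all under 1 point. With 5 reads Lhx came to 0.0551, and with 20 reads Pax to -0.121, Tbx to -0.234 and member CpGs of intermediate level (20% to 80%, otherwise 0.107) to -0.583. Weighted by reads, members less other genes came to 0.301 over all CpGs and 0.0354 over dense CpGs, intermediate CpGs to -0.225, Pax to -0.134 and Tbx to -0.0800. With equal weight per gene, sparse CpGs came to -0.124 and intermediate CpGs to -0.797. Without flanks, members less other genes came to 0.00116 for sparse and 0.00433 for dense CpGs. Leaving out each library in turn gave -0.0469 to 0.916 for sparse and -0.731 to 0.945 for intermediate CpGs, -0.678 to 0.126 and -0.120 to 0.0706 for members less other genes over sparse and dense CpGs, -0.452 to -0.0816 for middle CpGs, -0.514 to -0.209 for the Six-family genes, -0.0625 to 0.208 for Pax, -0.436 to 0.335 for Lhx, -0.100 to 0.157 for Tbx and -0.310 to 0.0520 for Sox. The causes of these changes were not tested.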
